A study of Homo sapiens with 4 samples.

Results

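Sterol and fatty acid synthesis genes under the control of SREBP transcription factors were followed in TE5 cells after knockdown of NUP153, a protein of the nuclear basket of the nuclear pore. The set holds 29 genes, 17 enzymes of the mevalonate and sterol pathway, 7 of fatty acid synthesis and 5 regulators or sterol carriers, among 56657 rows of the deposited count table. Members were taken by gene symbol alone, each matched 1 row, and all 29 were high enough to test, among 16817 genes tested. TE5 is an established line of esophageal squamous cell carcinoma. The shNUP153 group (n = 2 libraries) carried short hairpin RNA against NUP153, and the shControl group (n = 2) a control hairpin, labelled WT. In both groups hairpins were delivered by lentivirus, cells were selected with puromycin and kept for 7 more days, and the medium held 10% fetal bovine serum, which brings lipoprotein cholesterol. The labels mark the knockdown libraries g1 and g2 without saying whether these were different hairpins, and effects of a hairpin on other genes cannot be told apart from those of NUP153 loss.

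SREBPs are made as precursors held in the membrane of the endoplasmic reticulum. When sterols run low, the escort protein SCAP carries them to the Golgi, where the proteases encoded by MBTPS1 and MBTPS2 release the part that enters the nucleus, and INSIG proteins hold SCAP back when sterols are plentiful. SREBF2 codes for the factor that mainly drives cholesterol synthesis, and SREBF1 for forms that mainly drive fatty acid synthesis. Both factors bind sterol regulatory elements, commonly with the help of NF-Y at CCAAT boxes and of Sp1 at GC boxes. Proliferating tumour cells use these pathways to build membranes.

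The libraries held 25247932 and 23396626 counts in shNUP153 cells and 22606593 and 27396268 in shControl cells. NUP153 was at 67.9 and 81.9 CPM (counts scaled to library size by the TMM method) in shNUP153 libraries, against 149 and 142 CPM in shControl libraries (difference −0.96 on the log2 scale, SE 0.0619, edgeR adjusted p = 1.05e-14). Of 11 markers of squamous or general epithelium, 10 could be tested, with TP63 between 231 and 250 CPM. Called higher were 2 (20%) and lower 5 (50%), against 15% and 17.4% of all genes tested. Among genes at least as abundant as the lowest of the 29, these shares were 17.9% and 26.8%. EPCAM was at 112 and 117 CPM in shNUP153 against 237 and 226 CPM in shControl libraries (−1.02 on the log2 scale, edgeR adjusted p = 7.3e-18), CDH1 at 376 and 364 against 581 and 560 CPM (−0.63, adjusted p = 9.22e-14), KRT5 at 13.8 and 16.8 against 23.7 and 25.1 CPM (−0.68, adjusted p = 7.4e-07) and KRT17 at 1252 and 1238 against 745 and 724 CPM (0.76, adjusted p = 9.14e-17). Whether these shifts bear on the sterol and fatty acid genes was not tested. KRT14 was near 0, at 0.231 and 0.548 CPM in shNUP153 and 0.406 and 0.375 CPM in shControl libraries. Of 10 markers of other cell types 8 were too low to test, DCN and LUM at 0 counts in all 4 libraries, and the summed level of the 10 was 2.85 and 2.40 CPM in shNUP153 against 1.40 and 2.06 CPM in shControl libraries. VWF, one of the 10, rose, with 2.24 and 1.77 CPM against 0.902 and 1.43 CPM (edgeR adjusted p = 0.0431), and whether this bears on the genes below was not tested. In a bulk culture, fewer cells of a kind and less RNA per cell cannot be told apart.

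Most of the SREBP target genes were lower after NUP153 knockdown, by small amounts. The test was passed downward by 17 of 29 (58.6%) and upward by 3 (10.3%), at an edgeR adjusted p under 0.05, and 9 did not pass. Over all genes tested, 32.4% were called, 17.4% lower and 15% higher. Among the 9463 genes tested that were at least as abundant as the lowest member, at a mean of 11.03 CPM, 26.8% were called lower and 17.9% higher. The median log2 fold change was −0.22 over the members, against 0.005 over all genes tested and −0.03 over the abundant ones. The knockdown and control libraries did not overlap for 23 members that were lower and 3 that were higher in shNUP153 cells, where 32.2% of all genes tested did so in each direction. No member was more than 1.62-fold lower or 1.52-fold higher. Summed over the 29 genes, the level was 3577 and 3456 CPM in shNUP153 libraries and 4159 and 4276 CPM in shControl libraries, a ratio of means of 0.834, to which the few most abundant genes contribute most. With total-count scaling in place of TMM, 62.8% of all calls were higher against 46.3% with TMM, and 14 members were called lower and 3 higher, where 12.6% and 21.2% of all genes tested were.

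**Figure D1:**
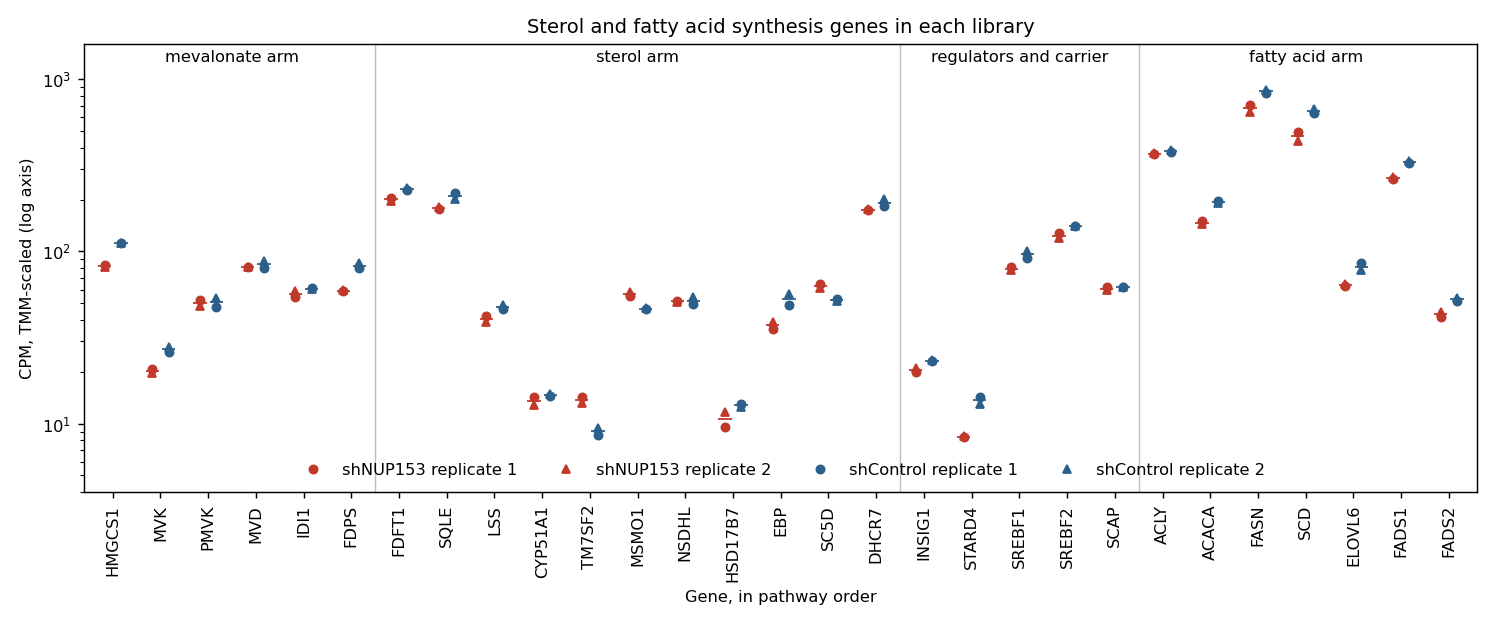
TMM-scaled CPM of the 29 genes in each library, on a log axis, in pathway order (points: libraries, short lines: group means, n = 2 each). In the fatty acid arm the shNUP153 libraries lie below the shControl libraries for 7 of 7 genes, of which ACLY did not pass the test. In the sterol arm TM7SF2, MSMO1 and SC5D lie above the controls. Of all genes tested, 32.2% separate in this way in each direction.

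Promoter sequences are shown for SREBF2, HMGCS1, FDPS, STARD4 and SCD, which fell, and for the sterol genes TM7SF2 and MSMO1, which rose. They are RefSeq windows on GRCh38.p14, from 250 bases before to 50 bases after an annotated start, read in the direction of the gene, and for HMGCS1 1 of its 2 windows is printed, the one with CCAAT boxes (2, against 0 in the other). Capitals mark the sterol regulatory element TCACNCCAC and the CCAAT box, each searched on both strands, so that ATTGG is a CCAAT box on the other strand.
SREBF2 (chr22:41832855-41833154, plus strand): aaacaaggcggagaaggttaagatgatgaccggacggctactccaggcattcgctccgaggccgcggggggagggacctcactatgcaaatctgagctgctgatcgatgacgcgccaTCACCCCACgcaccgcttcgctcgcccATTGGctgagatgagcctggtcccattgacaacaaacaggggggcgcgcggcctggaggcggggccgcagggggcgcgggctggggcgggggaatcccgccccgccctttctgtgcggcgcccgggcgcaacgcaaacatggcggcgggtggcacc
HMGCS1 (chr5:43313363-43313662, minus strand): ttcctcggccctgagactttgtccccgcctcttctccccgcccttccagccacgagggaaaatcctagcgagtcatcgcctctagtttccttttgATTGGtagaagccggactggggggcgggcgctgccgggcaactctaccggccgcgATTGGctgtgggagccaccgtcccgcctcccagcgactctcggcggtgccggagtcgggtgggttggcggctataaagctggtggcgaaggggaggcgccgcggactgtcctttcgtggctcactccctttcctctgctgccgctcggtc
FDPS (chr1:155308616-155308915, plus strand): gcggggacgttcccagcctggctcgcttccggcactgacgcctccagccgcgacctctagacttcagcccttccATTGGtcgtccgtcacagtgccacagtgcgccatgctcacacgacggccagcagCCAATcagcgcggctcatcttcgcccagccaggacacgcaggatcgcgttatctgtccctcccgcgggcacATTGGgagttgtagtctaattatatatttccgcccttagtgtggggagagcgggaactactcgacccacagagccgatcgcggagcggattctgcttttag
STARD4 (chr5:111512486-111512785, minus strand): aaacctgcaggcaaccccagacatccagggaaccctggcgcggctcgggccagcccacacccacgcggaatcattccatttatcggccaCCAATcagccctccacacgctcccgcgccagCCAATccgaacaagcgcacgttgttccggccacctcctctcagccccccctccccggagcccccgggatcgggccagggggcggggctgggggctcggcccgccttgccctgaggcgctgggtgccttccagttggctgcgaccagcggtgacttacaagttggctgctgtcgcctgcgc
SCD (chr10:100346983-100347282, plus strand): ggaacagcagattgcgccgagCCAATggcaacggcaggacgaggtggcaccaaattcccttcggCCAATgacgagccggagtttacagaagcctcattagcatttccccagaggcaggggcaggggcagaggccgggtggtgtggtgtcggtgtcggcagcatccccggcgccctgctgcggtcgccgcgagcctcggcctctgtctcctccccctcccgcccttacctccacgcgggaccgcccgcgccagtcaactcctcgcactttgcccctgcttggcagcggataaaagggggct
TM7SF2 (chr11:65111622-65111921, plus strand): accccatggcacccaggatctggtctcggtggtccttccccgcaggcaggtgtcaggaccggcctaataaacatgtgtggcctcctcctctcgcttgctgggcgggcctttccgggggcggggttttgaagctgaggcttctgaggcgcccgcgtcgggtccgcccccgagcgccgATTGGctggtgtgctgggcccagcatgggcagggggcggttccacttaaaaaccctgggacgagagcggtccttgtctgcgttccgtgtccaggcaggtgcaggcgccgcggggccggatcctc
MSMO1 (chr4:165327419-165327718, plus strand): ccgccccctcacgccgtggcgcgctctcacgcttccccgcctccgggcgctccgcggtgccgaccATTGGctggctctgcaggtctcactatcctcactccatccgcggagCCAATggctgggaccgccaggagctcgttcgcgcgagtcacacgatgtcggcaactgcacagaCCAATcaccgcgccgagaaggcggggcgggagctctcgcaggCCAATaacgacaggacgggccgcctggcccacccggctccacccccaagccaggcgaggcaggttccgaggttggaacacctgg
The table held 35 windows for 26 of the 29 members and none for FDFT1, SQLE and FASN. The element TCACNCCAC was found in 1 of the 26 genes, SREBF2, as TCACCCCAC with its first base 133 bases before the start, and in 1.42% of the 11121 tested genes that have a window. CCAAT was found in 20 of the 26 members (76.9%) and in 42.7% of the tested genes, and the GC box GGGCGG in 25 members (96.2%) and 75.3% of tested genes. The E-box CACGTG was found in 4 members (15.4%) and 12.4% of tested genes. Per window, CCAAT was in 24 of 35 member windows (68.6%) and 34.6% of all 35116 windows, and GGGCGG in 88.6% and 45.0%. CCAAT was present in 3 of the 3 genes that rose, in 11 of the 14 that fell and have a window, and in 6 of 9 that did not pass. Genes that fell and had no CCAAT, SREBF1, ELOVL6 and FADS1, are not among those printed. A match describes these letters and is not a binding site shown in these cells. Only these exact letters were searched, so a window without a match may still hold the element in another form.

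In the mevalonate arm, which turns acetyl-CoA units into farnesyl diphosphate, 3 of 6 genes fell (50%) and 0 rose. Among the 9463 genes at least as abundant as the lowest member, 26.8% fell and 17.9% rose. HMGCS1, which makes the precursor of mevalonate, was at 83.6 and 80.7 CPM in shNUP153 libraries and 113 and 112 CPM in shControl libraries (82.2 ± 2.06 against 112 ± 0.660, SD, n = 2 each). Both knockdown libraries were below both controls, and the log2 fold change was −0.45 (SE 0.0538, edgeR adjusted p = 3.19e-08). MVK, the kinase that first phosphorylates mevalonate, measured 20.6 and 19.8 CPM in shNUP153 against 26.0 and 28.0 CPM in shControl libraries, without overlap (−0.42, SE 0.0848, edgeR adjusted p = 0.000185). FDPS, which joins the isoprenoid units into farnesyl diphosphate, measured 58.7 and 59.3 CPM against 79.7 and 85.6 CPM (−0.49, SE 0.0591, edgeR adjusted p = 3.7e-08). These were the first, the second and the last of the 6 genes as listed here, and the steps between them did not pass the test. PMVK, the next kinase, was at 51.9 and 48.3 CPM in shNUP153 and 47.5 and 54.0 CPM in shControl libraries, and its groups overlapped. MVD, which decarboxylates the product, was at 81.0 and 81.5 CPM against 80.3 and 88.3 CPM, also with overlap. IDI1, the isomerase of isopentenyl diphosphate, was at 54.6 and 58.7 CPM against 61.1 and 60.2 CPM, without overlap (edgeR adjusted p = 0.233). The 95% interval of the log2 fold change was −0.16 to 0.12 for PMVK, −0.17 to 0.06 for MVD and −0.23 to 0.03 for IDI1.

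The sterol arm, from squalene to cholesterol, had 5 of 11 genes lower (45.5%) and 3 higher (27.3%). Among the 9463 genes at least as abundant as the lowest member, these shares were 26.8% and 17.9%. The first 3 steps of the arm fell. FDFT1, squalene synthase, was at 205 and 197 CPM in shNUP153 libraries and 227 and 233 CPM in shControl libraries (−0.19, SE 0.0473, edgeR adjusted p = 0.00153). SQLE, which adds the oxygen to squalene and is a control point of the pathway, was at 177 and 182 CPM against 217 and 201 CPM (−0.22, SE 0.0494, edgeR adjusted p = 0.000644). LSS, which folds the product into lanosterol, was at 42.3 and 38.9 CPM against 46.6 and 48.6 CPM (−0.23, SE 0.0686, edgeR adjusted p = 0.0085). For each of these 3 genes both knockdown libraries lay below both controls, with smaller log2 differences than the 3 mevalonate genes that fell. Calls at these steps depended on single libraries: the adjusted p was 0.0842 for FDFT1 and 0.206 for LSS without shNUP153 replicate 2, and 0.0521 for SQLE without shNUP153 replicate 1. None of the 3 passed with limma without a variance trend (adjusted p = 0.111, 0.105 and 0.103, in pathway order), and LSS missed with total-count scaling (0.0597).

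Genes that rose were found among the later steps that trim lanosterol. TM7SF2, which codes for a sterol reductase acting just after the demethylase CYP51A1, was at 14.3 and 13.1 CPM in shNUP153 libraries and 8.61 and 9.41 CPM in shControl libraries. It had the largest rise of the set, 1.52-fold (log2 fold change 0.61, SE 0.113, edgeR adjusted p = 6.12e-05), on 372 and 312 counts against 191 and 251. MSMO1, an oxidase in the removal of methyl groups from the sterol ring, was at 54.8 and 58.1 CPM against 46.2 and 47.0 CPM (0.28, SE 0.064, edgeR adjusted p = 0.000906). SC5D, a late desaturase, was at 64.7 and 61.3 CPM against 52.9 and 51.8 CPM (0.27, SE 0.0618, edgeR adjusted p = 0.000831). In these 3 genes both knockdown libraries were above both controls. LBR, which codes for the lamin B receptor and has the same sterol reductase activity as TM7SF2, also rose, with 226 and 235 CPM in shNUP153 against 210 and 198 CPM in shControl libraries (0.18, SE 0.0481, edgeR adjusted p = 0.00375). Without shNUP153 replicate 2 MSMO1 missed the threshold (adjusted p = 0.0676), as did SC5D without shNUP153 replicate 1 (0.0732), and both did with limma without a variance trend (0.0583 and 0.0611).

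Between and after those steps EBP fell most. EBP, which shifts a double bond within the sterol ring, was at 35.6 and 38.9 CPM in shNUP153 libraries and 49.0 and 56.3 CPM in shControl libraries (37.2 ± 2.29 against 52.6 ± 5.17, SD, n = 2 each; log2 fold change −0.50, SE 0.0724, edgeR adjusted p = 9.96e-07). DHCR7, which makes the last reduction to cholesterol in one branch, was at 174 and 176 CPM against 183 and 200 CPM (−0.13, SE 0.0502, edgeR adjusted p = 0.0413). That call did not hold without shNUP153 replicate 1 (adjusted p = 0.265), without shNUP153 replicate 2 (0.183), without shControl replicate 2 (0.35), or with DESeq2 (0.11), total-count scaling (0.315) or limma without a variance trend (0.286). The other 3 steps of the arm did not pass. CYP51A1 was at 14.3 and 12.8 CPM against 14.5 and 14.8 CPM, with a 95% interval of −0.32 to 0.09 on the log2 scale. NSDHL, which follows MSMO1, was at 51.8 and 50.8 CPM against 49.2 and 54.5 CPM, with overlapping groups and a 95% interval of −0.15 to 0.11 on the log2 scale. HSD17B7, the reductase of the same demethylation cycle, was at 9.56 and 11.8 CPM against 13.1 and 12.5 CPM (−0.26, edgeR adjusted p = 0.0796), and its value moved with the library left out, to −0.12 (adjusted p = 0.603) without shNUP153 replicate 1 and −0.42 (adjusted p = 0.0389) without shNUP153 replicate 2. Its near-identical pseudogene HSD17B7P2 was at 1.93 and 1.48 CPM in shNUP153 and 1.94 and 1.88 CPM in shControl libraries, so reads shared between them could be counted for either.

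**Figure D2:**
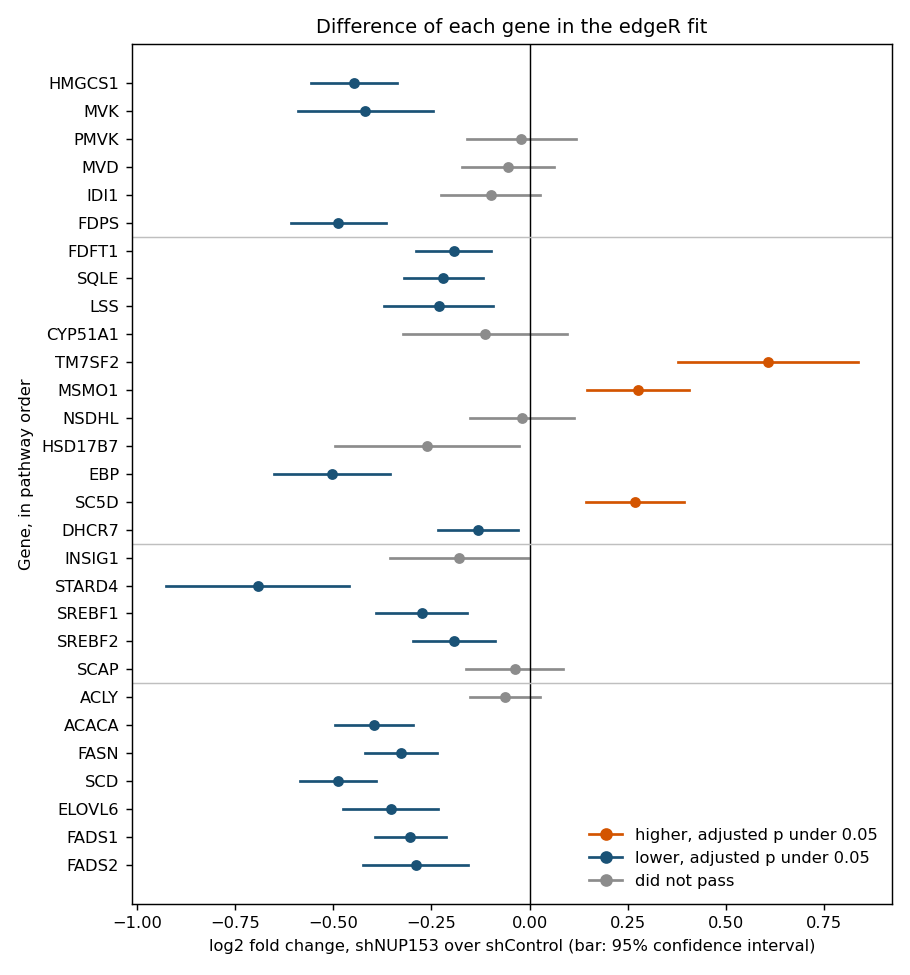
Log2 fold change of each gene, shNUP153 over shControl, in the edgeR fit across all genes tested, with its 95% confidence interval and pathway order from top to bottom. Intervals of TM7SF2, MSMO1 and SC5D lie above 0, and those of PMVK, MVD, IDI1, CYP51A1, NSDHL, SCAP and ACLY include 0.

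Among the regulators and carriers 3 of 5 fell (60%) and 0 rose, beside 26.8% and 17.9% of the 9463 abundant genes. STARD4, which carries cholesterol between membranes, fell most of all 29 genes, 1.62-fold, with 8.37 and 8.47 CPM in shNUP153 libraries against 14.3 and 13.0 CPM in shControl libraries (log2 fold change −0.69, SE 0.115, edgeR adjusted p = 1.03e-05). SREBF1 was at 81.1 and 78.0 CPM against 92.1 and 100.2 CPM (−0.27, SE 0.0569, edgeR adjusted p = 0.000244). SREBF2 was at 127 and 119 CPM against 141 and 141 CPM (−0.19, SE 0.0513, edgeR adjusted p = 0.00352). Both transcription factor genes were thus lower in each knockdown library than in each control. The SREBF2 call was lost without shNUP153 replicate 2 (adjusted p = 0.163), with total-count scaling (0.0518) and with limma without a variance trend (0.122), and that for SREBF1 with the last of these (0.0727). INSIG1, itself a known SREBP target, was at 20.01 and 20.9 CPM in shNUP153 and 22.99 and 23.4 CPM in shControl libraries. Its groups did not overlap, yet it did not pass the test (−0.18, 95% interval −0.36 to −0.005, edgeR adjusted p = 0.11). SCAP was at 62.5 and 59.3 CPM against 62.5 and 62.5 CPM, with a 95% interval of −0.16 to 0.08 on the log2 scale.

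The fatty acid arm fell in 6 of 7 genes (85.7%) and rose in 0, beside 26.8% and 17.9% of the 9463 abundant genes. ACLY, which makes cytosolic acetyl-CoA from citrate, was the gene that did not pass, at 365 and 372 CPM in shNUP153 libraries and 380 and 390 CPM in shControl libraries (95% interval −0.15 to 0.03 on the log2 scale). ACACA, which carboxylates acetyl-CoA to malonyl-CoA, was at 150 and 144 CPM against 196 and 191 CPM (−0.40, SE 0.0488, edgeR adjusted p = 5.32e-08). FASN, the fatty acid synthase that builds palmitate from it, was at 707 and 648 CPM against 836 and 864 CPM (677 ± 41.5 against 850 ± 19.9, SD, n = 2 each; −0.33, SE 0.0444, edgeR adjusted p = 3.27e-07). The knockdown libraries were below the controls for both genes, and for FASN the distance between the knockdown libraries was larger than between the controls.

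Enzymes that modify the fatty acid chain were lower as well. SCD, which puts the first double bond into saturated chains, was at 493 and 438 CPM in shNUP153 libraries and 639 and 668 CPM in shControl libraries (466 ± 39.3 against 653 ± 20.7, SD, n = 2 each). Its difference of −0.49 on the log2 scale (SE 0.0478) had the smallest adjusted p of the 29 genes, 3.45e-10 in edgeR. ELOVL6, the elongase of saturated and monounsaturated chains, was at 63.2 and 64.4 CPM against 85.1 and 78.2 CPM (−0.35, SE 0.0592, edgeR adjusted p = 1.21e-05). FADS1 and FADS2 code for desaturases of polyunsaturated chains and lie head to head on chromosome 11. FADS1 was at 265 and 270 CPM in shNUP153 against 326 and 335 CPM in shControl libraries (−0.30, SE 0.0451, edgeR adjusted p = 1.73e-06). FADS2 was at 41.9 and 44.3 CPM against 51.5 and 53.8 CPM (−0.29, SE 0.0659, edgeR adjusted p = 0.000704), and it missed the threshold without shNUP153 replicate 1 (adjusted p = 0.0571) and with limma without a variance trend (0.0565). GENCODE 29 exons of the pair overlap by 490 bases on opposite strands, 4.79% of FADS1 and 4.44% of FADS2, so those reads cannot be assigned without strand. FADS2 also shares 49 bases (0.444%) on the same strand with FEN1, at 323 and 321 CPM in shNUP153 and 370 and 381 CPM in shControl libraries.

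Levels can be set side by side between genes only per length. By CPM per kilobase of exon (union of GENCODE 29 exons), the set was led by SCD (86.9 in shNUP153 and 122 in shControl cells), FASN (72.3 and 90.8) and ACLY (70.7 and 73.8), and ended with HSD17B7 (2.23 and 2.67) and STARD4 (1.48 and 2.40). SCD thus stood above FASN and ACLY in both groups on this scale. Of the steps of the mevalonate arm PMVK was highest (39.1 and 39.6) and MVK lowest (3.12 and 4.17). These lengths count every annotated exon and may not match the transcripts present.

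GENCODE 29 exons of other genes overlap those of 12 further members. SREBF1 shares 556 exonic bases (6.92% of its exons) with RAI1 on the opposite strand, which was at 66.0 and 59.6 CPM in shNUP153 and 63.5 and 64.5 CPM in shControl libraries. MVK shares 306 bases with MMAB, at 29.2 and 29.1 CPM against 31.4 and 34.6 CPM, and FDPS shares 693 bases with RUSC1-AS1, at 6.01 and 5.82 CPM against 6.49 and 5.78 CPM. CYP51A1 shares 79.4% of its exonic bases with AC000120.2 on the same strand, a gene whose ID has no row in the deposited counts. Whether reads in the shared bases were counted for CYP51A1 is not known, so its level may rest on part of its reads. HMGCS1 shares 15% of its exonic bases with the antisense gene AC114947.2, which was at most 0.154 CPM in any library, and IDI1 14.8% with IDI2-AS1, at most 0.464 CPM. TM7SF2 shares 16 bases (0.469%) on the same strand with VPS51, at 103 and 99.7 CPM in shNUP153 and 93.9 and 103 CPM in shControl libraries. The partners of the other 5 (FDFT1, LSS, STARD4, SREBF2 and ACLY) lie on the opposite strand and share at most 6.19% of a member's exonic bases.

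Genes of neighbouring parts of sterol metabolism were counted in the same way. Over all genes tested 17.4% fell and 15% rose, and among those at least as abundant as the lowest member 26.8% and 17.9%. Of 11 other genes of sterol synthesis and SREBP control 4 fell (36.4%) and 1 rose (9.09%), and the 1 that rose was LBR. Those that fell were ACAT2, which makes acetoacetyl-CoA (21.0 and 22.4 CPM in shNUP153 against 29.6 and 31.4 CPM in shControl libraries; −0.49, edgeR adjusted p = 1.11e-05), TMEM97, a sterol-regulated membrane protein (−0.34, adjusted p = 2.29e-05), the ubiquitin ligase gene RNF145 (−0.29, adjusted p = 2.32e-05) and ERLIN1 (−0.22, adjusted p = 0.00142). The SREBP protease genes MBTPS1 (184 and 182 CPM against 189 and 196 CPM) and MBTPS2 (110 and 115 CPM against 124 and 111 CPM) did not pass. In the branch from farnesyl diphosphate to ubiquinone and prenylated proteins 2 of 11 genes fell (18.2%) and 0 rose. The share that fell was near the 17.4% of all genes tested and below the 26.8% of the abundant ones. The 2 genes were subunits of the enzyme that makes the ubiquinone side chain, PDSS1 (−0.47, edgeR adjusted p = 0.000182) and PDSS2 (−0.44, adjusted p = 0.00149).

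Of 24 other fatty acid and lipid synthesis genes that could be tested 7 fell (29.2%) and 1 rose (4.17%). Among the genes at least as abundant as the lowest member 26.8% fell and 17.9% rose, and over all genes tested 17.4% and 15%. The share that fell was near that of the abundant genes and above that of all genes. Some of the 24, such as ACACB and MLXIPL, were less abundant than the lowest member. FADS3, the third gene of the FADS cluster, was at 160 and 154 CPM in shNUP153 against 190 and 198 CPM in shControl libraries (−0.31, edgeR adjusted p = 5.44e-06). MLX, a partner of carbohydrate-response factors (−0.30, adjusted p = 0.000125), and the elongase gene ELOVL1 (−0.20, adjusted p = 0.00468) also fell. ACSL5, an acyl-CoA synthetase gene, rose, with 16.7 and 17.9 CPM against 11.6 and 10.8 CPM (0.62, adjusted p = 1e-05). Genes for sterol efflux, storage and oxysterol sensing split, with 3 of 11 higher and 3 lower (27.3% each, median 0.07), beside the same 17.9% and 26.8%. MYLIP, which codes for a ligase that degrades lipoprotein receptors and is a target of the oxysterol receptors, rose (28.1 and 26.4 CPM in shNUP153 against 19.5 and 19.95 CPM in shControl libraries; 0.47, adjusted p = 4.13e-05). NPC1, which exports cholesterol from lysosomes, rose (99.7 and 99.1 CPM against 82.1 and 82.6 CPM; 0.27, adjusted p = 0.000152). SOAT1, which esterifies cholesterol for storage, fell (71.0 and 72.1 CPM against 95.2 and 95.01 CPM; −0.41, adjusted p = 2.95e-07), as did LPCAT3, a phospholipid-remodelling gene that is also a target of the oxysterol receptors (29.5 and 28.5 CPM against 37.1 and 36.6 CPM; −0.35, adjusted p = 0.000368). The further oxysterol receptor targets, ABCA1 (−0.33) and ABCG1 (0.49), did not pass (adjusted p = 0.103 and 0.0691).

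**Figure D3:**
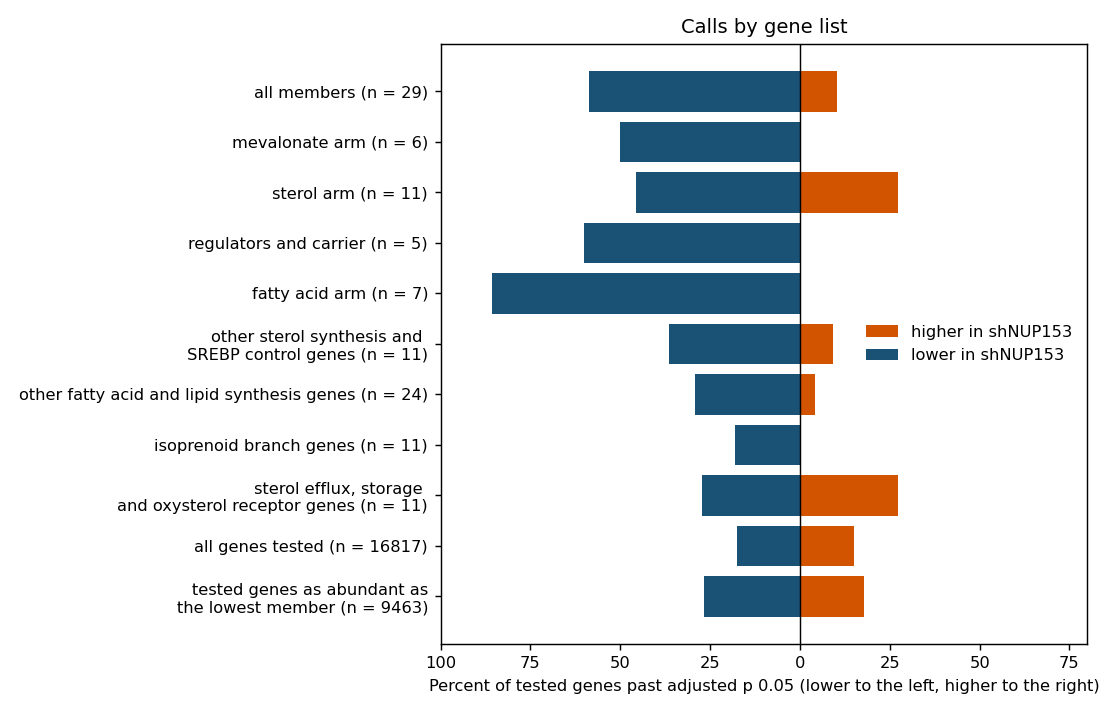
Percent of tested genes called lower (left) and higher (right) in shNUP153 cells at an edgeR adjusted p under 0.05, for the 29 members, their 4 arms, 4 further lists and all genes tested. The fatty acid arm has 85.7% of its 7 genes lower, against 17.4% of all genes tested and 26.8% of those as abundant as the lowest member.

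Calls differed in how far they held. Of the 20 members called, 11 passed under each of the 10 alternatives tried, 10 of them lower (HMGCS1, MVK, FDPS, EBP, STARD4, ACACA, FASN, SCD, ELOVL6 and FADS1) and 1 higher (TM7SF2). The other 9 lost the call under at least 1 alternative, and 0 of the 20 changed sign under any of the 10. Within the shNUP153 group, replicate 1 was above replicate 2 for 15 of the 29 genes, so neither knockdown library was the lower one throughout. Within the shControl group, replicate 1 was above replicate 2 for only 8 of the 29. The authors' deposited table gives log2 ratios without library-size scaling of −0.46 for SCD, −0.42 for HMGCS1, −0.67 for STARD4 and 0.63 for TM7SF2.

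**Figure D4:**
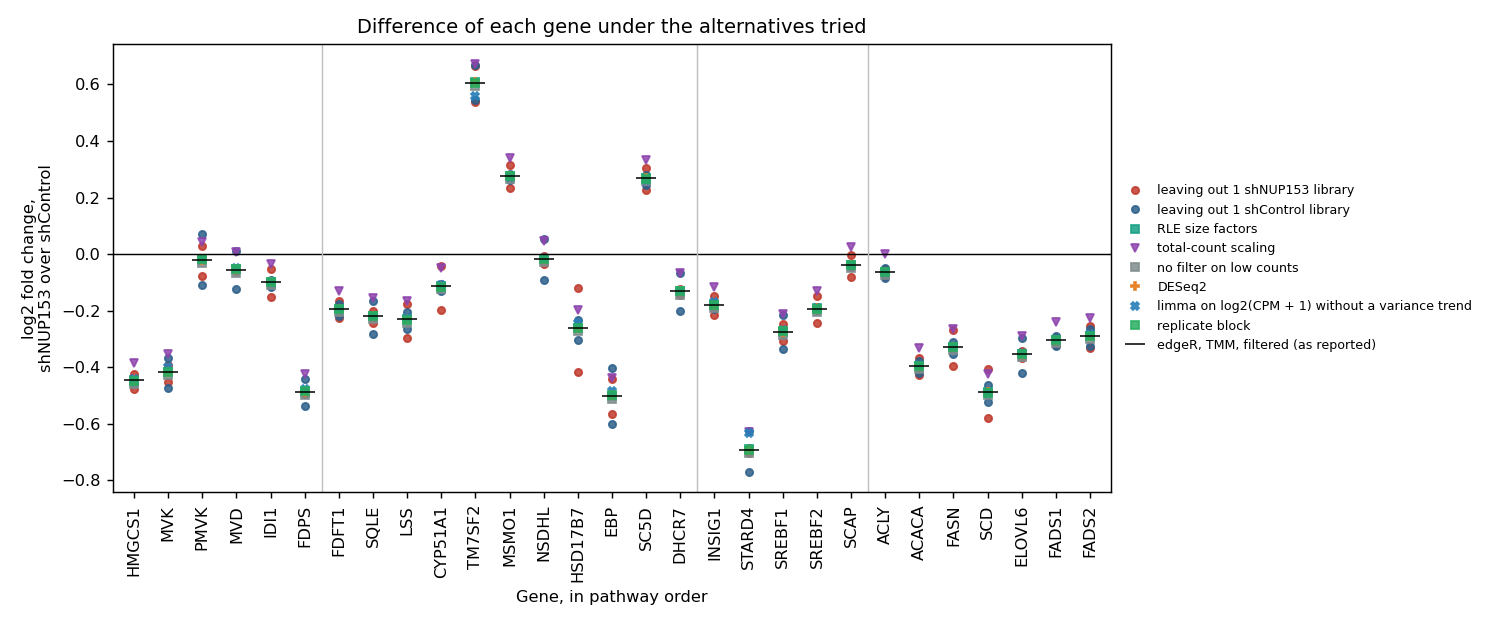
Log2 fold change of each gene, shNUP153 over shControl, as reported (black line) and under each of the 10 alternatives (points). Points of the 20 called genes stay on their side of 0, while PMVK, MVD, NSDHL, SCAP and ACLY have points on both sides.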

How the data were processed

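Total RNA from 4 TE5 libraries was sequenced. The deposited table, although named FPKM, holds whole numbers with a different total per library, so the authors' values were taken as raw counts per gene. Its log2 ratio, by the authors, equals that of mean counts plus 0.005 (largest difference 4.3e-09). The submitters' processing notes name kallisto, DESeq2, Bowtie2, deepTools and hg19, with no roles. The counting tool, the annotation and the use of strand are unstated there. No row lacked a gene name.

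Genes passing filterByExpr (minimum count 10, total 15) were tested in edgeR 4.0.16 (R 4.3.3) with TMM scaling and the quasi-likelihood test, two-sided, with Benjamini-Hochberg adjustment over all 16817 genes and a threshold of 0.05. This is the planned test for counts. CPM used the same scaling. The 2 libraries per group leave 2 residual degrees of freedom, and the spread was pooled across genes. Standard errors and 95% intervals come from the F statistic. The procedure was tested on simulated counts. DESeq2 1.42.0 and limma 3.58.1 (on log2(CPM + 1)) were among 10 alternatives.

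Nothing in the labels says that replicates were separate cultures, and p-values cover only the spread between the 4 libraries, which may be technical. Replicates differed by more than sampling noise (chi-square per gene 3.09 in shNUP153 and 3.57 in shControl, about 1 from sampling alone). Members had between 191 and 23035 counts in a library. The members and lists were chosen with earlier results of these data known. All members are named, and from each other list up to 4 called genes with the smallest p. TP63, KRT14, DCN, LUM, LBR, ABCA1, ABCG1, MBTPS1, MBTPS2 and VWF were added after their values were seen. Some genes of these pathways are not reported here.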

Additional observations from a re-analysis of the deposited data

How the results depend on the processing

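The 5448 genes called became 3549 with DESeq2, 2704 with limma without a variance trend, and 3072 to 5201 when 1 library was left out. Members called lower numbered 17, against 10 with limma and 14 to 17 with 1 library left out, and members called higher 3, against 1 and 2 to 3. The median over members was −0.22, and −0.16 with total-count scaling, which moves the median of all genes to 0.07 (0.005 with TMM). Sign changed for 5 members that had not passed. With total-count scaling PMVK was 0.0433, MVD 0.00892, NSDHL 0.0454, SCAP 0.0257 and ACLY 0.000778. With 1 library left out PMVK ranged from −0.109 to 0.071, MVD from −0.122 to 0.00997 and NSDHL from −0.0905 to 0.0529. The cause was not tested. The smaller counts with limma also held for all genes. With a lone library in a group, it was assumed to vary like the other group. The p-values of those fits rest on the spread within the other group only. No shift shared by replicate number was seen (correlation of replicate deviations between groups −0.01), which cannot show whether samples were handled in pairs. With a replicate block 5465 genes, 17 members lower and 3 higher were called. With RLE size factors the counts of members were also 17 and 3. Members with fewer counts carry wider intervals, as TM7SF2, STARD4 and HSD17B7 do.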
